A study of Mus musculus with 40 samples.

Results

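Complement and coagulation factors are plasma proteins made largely by hepatocytes, and the genes described here are 35 of them, 15 of the complement system and 20 of the coagulation and fibrinolysis systems, among 55359 genes in the count tables. They were chosen by name from textbook membership of both systems, but with earlier results of these data known. Other genes of both systems are described separately. All 35 were found by Ensembl identifier and passed the filter on low counts. Expression was measured by RNA-Seq in livers of 40 male C57BL/6 mice from a commercial supplier. By oral gavage every 4 days for 28 days, 7 administrations between 30 and 58 days of age, they received sesame oil vehicle or TCDD, a chlorinated dioxin, in sesame oil. The doses were 0.03, 0.1 and 0.3 μg/kg, 1 and 3 μg/kg, and 10 and 30 μg/kg. Each group held 5 mice and each library came from 1 liver. TCDD acts by binding AhR, the aryl hydrocarbon receptor, which regulates transcription, and all groups shared the vehicle, strain and schedule. The question was at which dose these secreted hepatic products changed, by how much, and whether complement and coagulation genes changed alike.

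In the complement system, mannose-binding lectins and C1 recognise a surface and switch on proteases, which assemble convertases that cleave C3. Convertases then cleave C5, and C5b joins C6, C7, C8 and several C9 molecules in a pore called the membrane attack complex. In coagulation, vitamin K dependent proteases act in series to make thrombin, which turns fibrinogen into fibrin. Antithrombin, heparin cofactor II, protein C and protein S restrain the cascade, and plasmin made from plasminogen dissolves the clot.

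A gene was called where edgeR's quasi-likelihood test over 15373 genes gave a Benjamini-Hochberg adjusted p under 0.05 together with a change of at least 1.5-fold. Levels are given as CPM, read counts scaled to each library's total after normalization, with the standard deviation between mice. Log2 fold changes from the fit are given with standard errors derived from the test statistic. The 40 libraries held 15.5 to 21.0 M counts in genes, with a median of 17.5 M, and member counts ranged from 4 for Cfb to 168275 for C3. Cyp1a1, the classical AhR target, stood at 1.66 ± 0.480 CPM in vehicle and was called at every dose, from a log2 fold change of 6.42 at 0.03 μg/kg to 11.75 at 30 μg/kg. A library stood apart over all genes. Replicate 1 of the 30 μg/kg group had a score of 81.7 on the first principal component of all genes, against 129 to 147 in the other 4 mice of its group and 39.1 to 67.8 at 10 μg/kg, and its Cyp1a1 level of 6230 CPM lay inside the range of its group. Counts at 30 μg/kg are therefore given with and without it.

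At 30 μg/kg TCDD, 32 of the 35 members were repressed and none was induced, where 18.9% of all genes tested were called lower and 23.2% were called higher. Of the complement members 13 of 15 fell, with a median log2 fold change over the 15 of -1.78 and a range of -4.23 to -0.54. Of the coagulation members 19 of 20 fell, with a median over the 20 of -1.54 and a range of -3.06 to 0.13, beside a median of 0.03 over all genes tested. In 31 members every mouse at 30 μg/kg lay below every vehicle mouse, which 17.9% of all genes also did. Without replicate 1, 15 complement and 19 coagulation members were called lower, with medians of -2.12 and -1.90, where 20.4% of all genes were called lower.

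At 10 μg/kg, 11 members were repressed and none was induced, where 8.13% of genes were called lower and 13.6% higher. These were Hc, C6, C8g and C9 of the terminal complement pathway, and Fga, Fgb, Fgg, F7, Pros1, Klkb1 and Plg of coagulation. Calls of C6, C9 and Pros1 at this dose changed when single libraries were left out. C6 and C9 were not called without vehicle replicate 3 or 4 or without replicate 3 or 4 of 10 μg/kg, C6 also not without replicate 2 and C9 not without replicate 1 of that dose, and Pros1 not without vehicle replicate 4 or 5 or replicate 4 or 5 of 10 μg/kg. Scaling to library totals ended the calls of C6, C8g, C9 and Pros1 at 10 μg/kg, where 4.92% of all genes were then called lower. In 19 members, 8 of complement and 11 of coagulation, all 5 mice at 10 μg/kg lay below all vehicle mice, beside 10.1% of all genes. No member was called at 3 μg/kg or below, where 6.75% of genes were called in either direction at 3 μg/kg. At 3 μg/kg the adjusted p of Mbl2 was 0.0177 and that of Pros1 0.00924, with log2 fold changes of -0.55 and -0.43 that did not reach the fold threshold.

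The step from 10 to 30 μg/kg was tested by itself. Between these doses 31 members fell, where 10.6% of genes did. Of the 21 members called at 30 but not at 10 μg/kg, 20 were lower at 30 than at 10 μg/kg by this test, and 10 of the 11 called at both doses fell further. The exceptions in these groups were F5, whose step of -0.50 ± 0.13 did not reach the fold threshold at an adjusted p of 0.00381, and Pros1, at 30.0 ± 3.94 CPM and 29.8 ± 1.91 CPM with a step of -0.01. A slope over the 8 ordered dose groups was negative with an adjusted p under 0.05 in 31 members, 12 of complement and 19 of coagulation, where 26.1% of genes had one. Members without it were Cfb, Cfi, C8b and Cpb2. For C8b the slope had an adjusted p of 0.0755, and its fall lay in the last step.

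**Figure D1:**
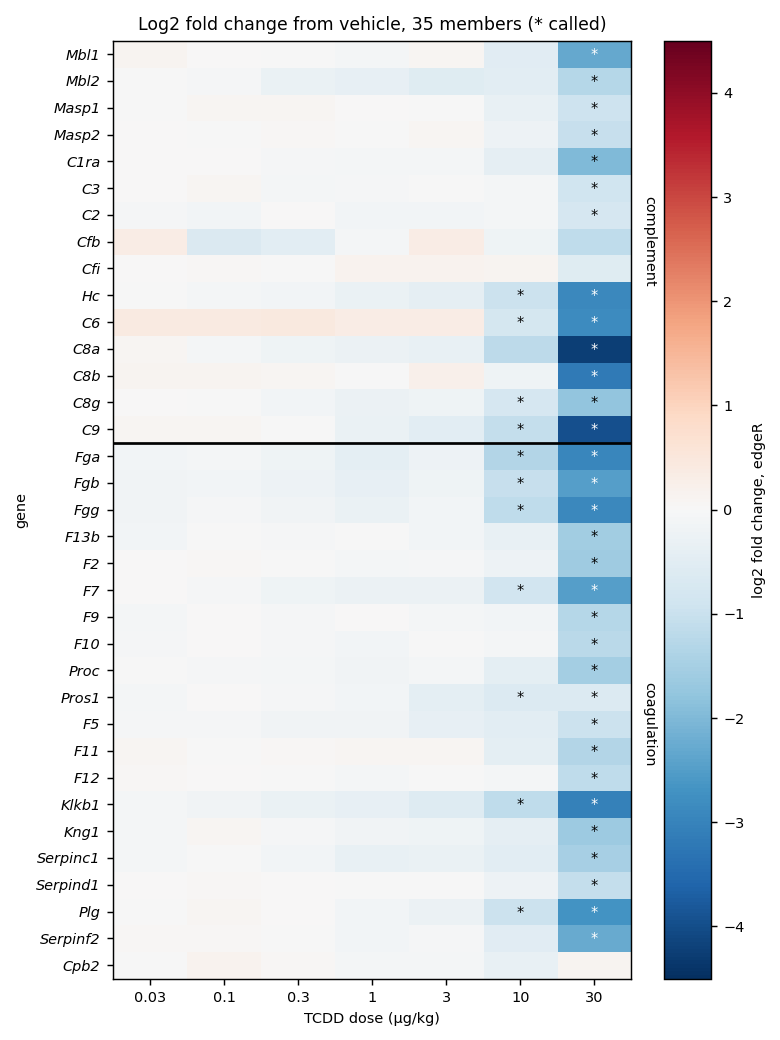
Log2 fold change from vehicle (colour, edgeR fit) of each of the 35 members (rows) at each TCDD dose (columns, μg/kg), with complement above the line and coagulation below it and an asterisk where a gene was called. Colour is faint up to 3 μg/kg, 11 members carry an asterisk at 10 μg/kg, and 32 do at 30 μg/kg, where only Cpb2 has a value above 0.

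Within complement, the members are taken by role. The 6 terminal pathway members all fell at 30 μg/kg, with a median of -3.03, while the 5 initiators all fell with a median of -1.29, and 2 of the 3 genes for C3 and its convertase proteases fell with a median over the 3 of -0.90. Cfi, the protease that cuts C3b and C4b and so shuts the convertases down, was not called. These medians describe the groups and were not tested against each other.

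C8a, C8b and C8g encode the alpha, beta and gamma chains of C8, which inserts the forming pore into a membrane. The level of C8a (ENSMUSG00000035031) was 589, 616, 749, 679 and 579 CPM in the 5 vehicle mice, 269.5, 398, 209, 235 and 322 CPM at 10 μg/kg and 132, 3.12, 2.52, 3.85 and 29.3 CPM at 30 μg/kg, in replicate order. The groups did not overlap, and at 30 μg/kg 3 mice kept only a few CPM while replicate 1 stood far above them. Its log2 fold change was -4.23 ± 0.59 (edgeR adjusted p = 1.12e-07), which was 18.8-fold lower, and -6.05 without replicate 1. At 10 μg/kg C8a was at -1.16 ± 0.52, which missed the threshold with an adjusted p of 0.0861, but it was called lower at this dose when replicate 1, 2 or 3 of 30 μg/kg was left out (adjusted p = 0.00568 in edgeR without replicate 1) and with vehicle and 10 μg/kg fitted alone.

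The level of C8b (ENSMUSG00000029656) was 289, 289, 368, 368 and 294 CPM in vehicle, 251, 292, 176, 239 and 438 CPM at 10 μg/kg and 134, 2.66, 3.13, 3.73 and 35.5 CPM at 30 μg/kg. The mice at 10 μg/kg overlapped vehicle and reached above it, and those at 30 μg/kg all lay below it, replicate 1 highest and replicate 5 next as for C8a. The log2 fold change was -0.20 at 10 μg/kg, which was not called, and -3.17 ± 0.57 at 30 μg/kg (adjusted p = 9.81e-06), or -4.84 without replicate 1. C8g, whose gene lies on another chromosome, fell less, from 402 ± 42.5 CPM to 117 ± 26.8 CPM (log2 fold change -1.78 ± 0.14), and had been called at 10 μg/kg.

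C8a and C8b lie next to each other on chromosome 4. Each mouse's ratio of C8a to C8b CPM was 1.85 to 2.14 in vehicle, 0.734 to 1.36 at 10 μg/kg and 0.805 to 1.17 at 30 μg/kg, so the vehicle ratios overlapped neither dose, and the shift was already present at 10 μg/kg. This ratio, like those of other neighbouring members given later, was examined after the values were seen and carries no test. The windows around both RefSeq starts (250 bases before to 50 after, GRCm38.p6) are shown because the pair is adjacent and its members moved by different amounts. They lie at chr4:104876349-104876648 on the minus strand and chr4:104766067-104766366 on the plus strand, and capitals mark GTTAAT or its reverse complement, a half-site of the hepatocyte factor HNF1.
C8a: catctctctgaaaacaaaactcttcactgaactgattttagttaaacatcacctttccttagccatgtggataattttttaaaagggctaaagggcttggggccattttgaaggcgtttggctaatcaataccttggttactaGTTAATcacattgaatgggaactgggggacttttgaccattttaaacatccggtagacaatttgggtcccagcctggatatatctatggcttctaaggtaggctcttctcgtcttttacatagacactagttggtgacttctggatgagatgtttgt
C8b: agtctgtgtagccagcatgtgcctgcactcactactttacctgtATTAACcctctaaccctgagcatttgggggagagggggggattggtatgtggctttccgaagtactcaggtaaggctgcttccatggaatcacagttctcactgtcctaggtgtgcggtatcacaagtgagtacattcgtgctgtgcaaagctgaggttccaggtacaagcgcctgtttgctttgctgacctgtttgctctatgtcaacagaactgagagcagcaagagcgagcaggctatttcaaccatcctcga

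C9 (ENSMUSG00000022149) polymerises to form the wall of the pore. Its level was 319, 321, 469.9, 476 and 358 CPM in vehicle, 180.5, 204, 145, 178 and 219 CPM at 10 μg/kg and 83.1, 4.74, 5.64, 7.26 and 25.8 CPM at 30 μg/kg. The groups were fully separate and stepped down at each of the 2 doses, with log2 fold changes of -1.07 ± 0.39 at 10 μg/kg and -3.94 ± 0.44 at 30 μg/kg (adjusted p = 0.0338 and 8.71e-10). The call at 10 μg/kg was lost with library totals, at -0.87 and an adjusted p of 0.0706. Hc, which encodes C5, fell from 799 ± 67.4 CPM to 405 ± 60.9 CPM at 10 μg/kg and 108 ± 79.6 CPM at 30 μg/kg, 7.40-fold lower. C6 fell from 134 ± 48.3 CPM to 19.1 ± 7.01 CPM, 7.03-fold lower.

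The initiating genes fell at 30 μg/kg without a call at 10 μg/kg. Mbl1 and Mbl2, the mannose-binding lectins, had log2 fold changes of -2.31 ± 0.29 and -1.29 ± 0.16. C1ra, a protease of the C1 complex, was at -1.97 ± 0.17. Its near-identical copy C1rb was too low to test, and reads that match both copies equally are left out as multimapping. Masp2, the lectin pathway protease that cleaves C4 and C2, was at -1.03 ± 0.13. Masp1 (ENSMUSG00000022887), its partner protease, read 191, 190.3, 179, 167 and 201 CPM in vehicle, 153, 163, 113, 145 and 154 CPM at 10 μg/kg and 105, 95.2, 94.9, 92.4 and 97.3 CPM at 30 μg/kg. All treated mice lay below vehicle at both doses, and the 5 mice at 30 μg/kg lay close together, at a log2 fold change of -0.94 ± 0.091 (adjusted p = 3.38e-11).

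C3 (ENSMUSG00000024164), the protein on which all activation routes converge, was the most abundant complement member per length, at 1592 ± 190.4 CPM per kb of exon in vehicle. Its level was 7987, 9579, 7227, 7395 and 8744 CPM in vehicle, 6424, 7729, 7010.1, 9114 and 8549 CPM at 10 μg/kg and 7789, 2562, 2524, 3539 and 5536 CPM at 30 μg/kg. Replicate 1 lay within the vehicle range and the other 4 mice below it, and the log2 fold change was -0.90 ± 0.20 (adjusted p = 0.000255), or -1.21 without replicate 1. C2 (ENSMUSG00000024371), the protease of the classical convertase, read 14.5, 9.89, 17.0, 17.6 and 14.0 CPM in vehicle, 14.5, 14.2, 7.40, 11.1 and 20.9 CPM at 10 μg/kg and 11.5, 6.49, 6.37, 8.57 and 10.3 CPM at 30 μg/kg. These groups overlapped, and the log2 fold change was -0.76 ± 0.19 (adjusted p = 0.00103), the smallest fall among the called complement members.

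Cfb and Cfi, the complement members that were not called, are described for that reason. Cfb, the protease of the alternative convertase, was barely counted, at 1.09, 1.31, 2.20, 2.03 and 1.504 CPM in vehicle and 2.27, 0.707, 0.191, 0.159 and 0.422 CPM at 30 μg/kg. Its replicate 1 exceeded every vehicle mouse and the other 4 lay below them all, giving -1.13 ± 0.49 with an adjusted p of 0.0506. In the GENCODE M21 annotation 79.5% of Cfb exon bases and 46.9% of C2 exon bases also belong to another gene. So do 54.9% of Masp2, 34.4% of Serpinc1, 11.3% of Plg and 5.49% of Fgg exon bases, and for 26 members no base is shared. Under such an annotation reads there would count for no gene, but the one used for counting is not given. The levels of these overlapped genes are therefore uncertain. Cfi read 571, 574, 570.4, 555 and 611 CPM in vehicle and 541, 316, 331, 373 and 423 CPM at 30 μg/kg. All of its mice at 30 μg/kg lay below vehicle with an adjusted p of 2.03e-05, but the log2 fold change of -0.54 ± 0.10 fell short of the fold threshold. At 10 μg/kg Cfi was at 0.12, and its step of -0.66 from 10 to 30 μg/kg was called lower.

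**Figure D2:**
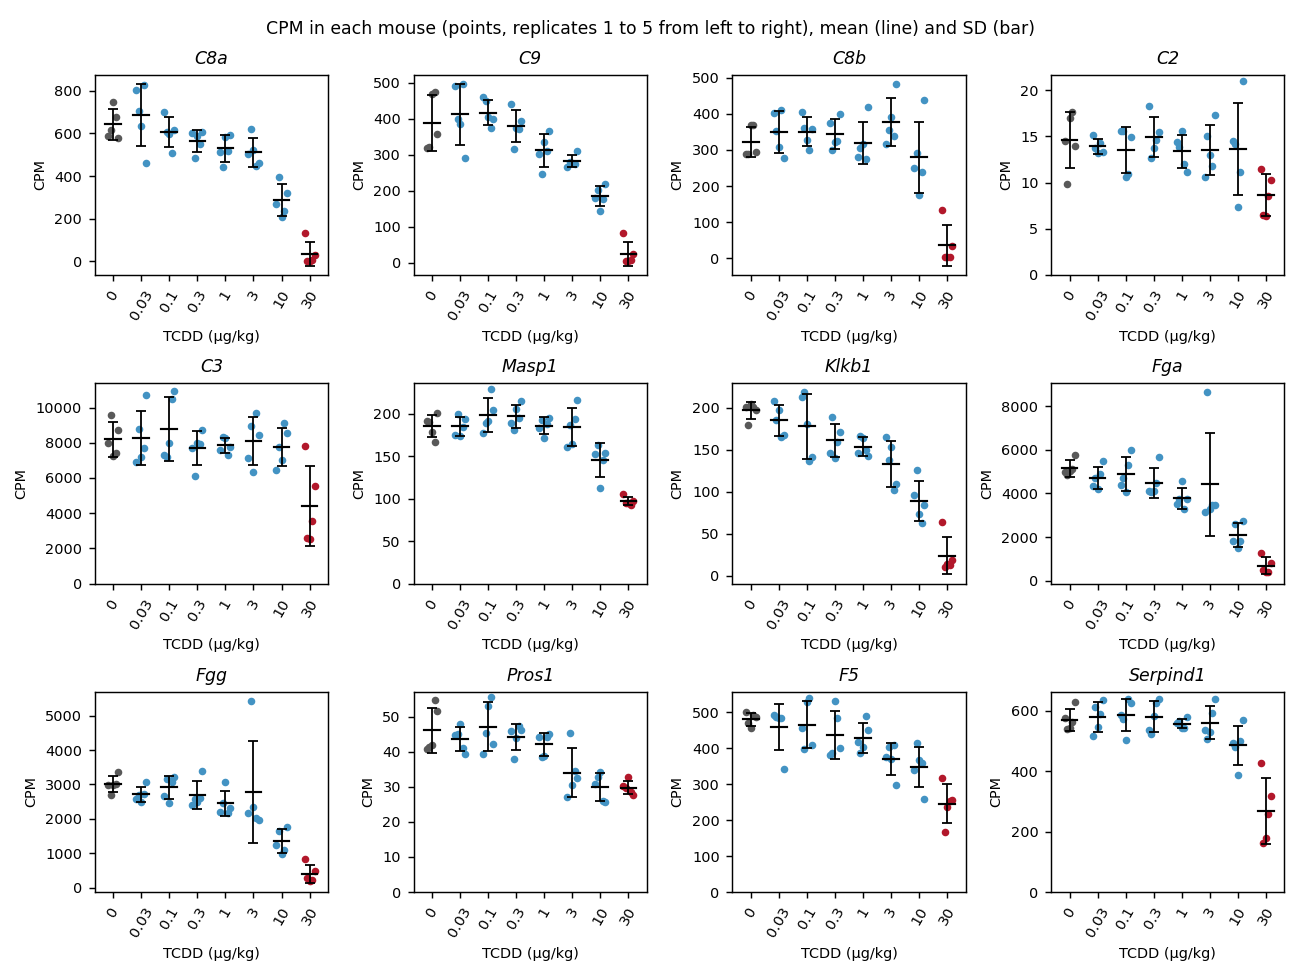
CPM (linear axis) in each mouse (points, replicates from left to right) by TCDD dose (μg/kg) for the 12 members with the largest and smallest called falls at 30 μg/kg in each list, with mean (line) and standard deviation (bar, n = 5). C8a, C9 and C8b end near 0 in 3 mice with replicate 1 above them, C3 keeps replicate 1 in the vehicle range, and the Fga and Fgg panels show replicate 2 at 3 μg/kg far above its group.

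Fibrinogen is built from the chains encoded by Fga, Fgb and Fgg, which lie together on chromosome 3. Fga (ENSMUSG00000028001) was the most abundant member per length, at 1710.5 ± 123 CPM per kb in vehicle and 223 ± 129 at 30 μg/kg. Its level was 4964, 4836, 5039.5, 5118 and 5785 CPM in vehicle, 1800.2, 2583, 1479, 1824 and 2744 CPM at 10 μg/kg and 1288, 473, 405, 373 and 824 CPM at 30 μg/kg. The 3 groups did not overlap, and Fga was at -1.30 ± 0.25 at 10 μg/kg and -2.94 ± 0.27 at 30 μg/kg (adjusted p = 9.69e-05 and 7.62e-12), 7.66-fold lower at the higher dose. Fgg (ENSMUSG00000033860) read 2977, 2694, 2999, 3011 and 3358 CPM in vehicle, 1244, 1636, 986, 1102 and 1779 CPM at 10 μg/kg and 828, 281, 193, 224 and 490.2 CPM at 30 μg/kg. The groups were again separate, with replicate 1 and then replicate 5 highest at 30 μg/kg as for Fga, and the log2 fold change at that dose was -2.90 ± 0.28 (adjusted p = 3.06e-11). Fgb fell from 4008 ± 222 CPM to 1956 ± 351 CPM and 728 ± 436 CPM, a log2 fold change at 30 μg/kg of -2.46 ± 0.25.

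The chains were also compared within mice. The ratio of Fga to Fgg CPM was 1.67 to 1.79 in vehicle and 1.56 to 2.10 at 30 μg/kg, which overlap, while the ratio of Fga to Fgb was 1.23 to 1.34 in vehicle, 0.930 to 1.16 at 10 μg/kg and 0.895 to 0.984 at 30 μg/kg, which do not overlap vehicle. At 3 μg/kg replicate 2 stood above its group and above every vehicle mouse in all 3 chains. Fga was 3162, 8653, 3292, 3491 and 3489 CPM, and the Fgb and Fgg values of that mouse were 7041 and 5435 CPM against at most 2860.5 and 2332 CPM in the others. Without this mouse the log2 fold change of Fga at 3 μg/kg went from -0.22 to -0.62, that of Fgb from -0.18 to -0.59 and that of Fgg from -0.11 to -0.50, and none of them passed the test (lowest adjusted p = 0.0865, Fgb).

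The RefSeq start windows of the fibrinogen genes are shown because these genes moved together. Fga lies at chr3:83025903-83026202 on the plus strand, Fgb at chr3:83049814-83050113 on the minus strand and Fgg at chr3:83007474-83007773 on the plus strand, all in GRCm38.p6. Capitals mark GTTAAT (HNF1 half-site), TTGCNNAA (a C/EBP-like sequence) and GCGTG (the core of the dioxin response element bound by AhR), on either strand. Fga and Fgb each hold the HNF1 and the C/EBP-like letters, and Fgg holds a dioxin response element core and neither of the others.
Fga: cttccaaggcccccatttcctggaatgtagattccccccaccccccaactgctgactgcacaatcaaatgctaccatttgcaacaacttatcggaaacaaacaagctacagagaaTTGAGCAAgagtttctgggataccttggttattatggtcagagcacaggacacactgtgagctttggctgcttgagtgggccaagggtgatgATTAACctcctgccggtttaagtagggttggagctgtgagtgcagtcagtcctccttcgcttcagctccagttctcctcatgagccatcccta
Fgb: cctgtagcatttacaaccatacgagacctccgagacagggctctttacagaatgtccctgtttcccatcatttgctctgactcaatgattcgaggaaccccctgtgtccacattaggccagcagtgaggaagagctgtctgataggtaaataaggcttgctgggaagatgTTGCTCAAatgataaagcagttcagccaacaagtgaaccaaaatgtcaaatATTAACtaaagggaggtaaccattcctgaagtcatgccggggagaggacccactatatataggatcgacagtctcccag
Fgg: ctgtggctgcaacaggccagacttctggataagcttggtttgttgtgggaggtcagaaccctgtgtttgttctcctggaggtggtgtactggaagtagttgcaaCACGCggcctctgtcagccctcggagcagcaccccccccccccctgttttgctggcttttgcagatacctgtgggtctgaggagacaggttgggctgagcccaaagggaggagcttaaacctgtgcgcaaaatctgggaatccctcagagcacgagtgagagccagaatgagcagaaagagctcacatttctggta

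Across the members, 28 of the 35 had a window in the RefSeq table, with 29 windows in all. GTTAAT was in 27.6% of the member windows and in 7.10% of all 32851 windows. TTGCNNAA was in 34.5% of member windows and 10.8% of all, while GCGTG was in 13.8% of member windows, those of C6, F11, Fgg and Serpinf2, and in 32.4% of all. CAAAGT, a short form of the HNF4 core, was in 17.2% and 14.4%, its longer form CAAAGTCCA in 0% and 0.475%, and TATAAA in 10.3% and 13.6%. CAAAGT lies within CAAAGTCCA, so these are not separate counts. All were searched on both strands, the motifs were chosen after the values were seen, and a match is a description of letters only.

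F13b, the carrier subunit of factor XIII, which cross-links fibrin, fell from 182 ± 14.5 CPM to 62.0 ± 31.0 CPM (log2 fold change -1.56 ± 0.16).

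All 6 vitamin K dependent members fell at 30 μg/kg, with a median of -1.40. F7, the protease that starts coagulation with tissue factor, fell furthest, from 128 ± 5.63 CPM through 70.0 ± 15.3 CPM to 23.0 ± 15.0 CPM, 5.56-fold lower. Prothrombin (F2) was at -1.60 ± 0.19, F9 at -1.27 ± 0.17, F10 at -1.20 ± 0.18 and Proc, the precursor of the anticoagulant protein C, at -1.53 ± 0.17, none of them called at 10 μg/kg. F7 and F10 are neighbours on chromosome 8, and their CPM ratio was 0.222 to 0.251 in vehicle, 0.123 to 0.143 at 10 μg/kg and 0.0818 to 0.116 at 30 μg/kg.

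Pros1 (ENSMUSG00000022912), the cofactor of protein C, fell least of the called members. Its level was 40.7, 41.4, 41.9, 54.6 and 51.6 CPM in vehicle, 30.9, 32.9, 34.3, 26.0 and 25.7 CPM at 10 μg/kg and 30.4, 29.6, 32.7, 28.5 and 27.7 CPM at 30 μg/kg. Both treated groups lay below vehicle and overlapped each other, at -0.62 ± 0.11 and -0.63 ± 0.11 (adjusted p = 4.74e-05 and 1.17e-05), and without vehicle replicate 4 its value at 30 μg/kg was -0.56, under the fold threshold.

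F5 (ENSMUSG00000026579), the cofactor that speeds thrombin formation, read 499, 470.0, 454, 492 and 486 CPM in vehicle, 338, 415, 366, 359 and 259 CPM at 10 μg/kg and 317, 166, 236, 253 and 256 CPM at 30 μg/kg. All treated mice lay below vehicle at both doses, and the log2 fold change was -0.47 ± 0.13 at 10 μg/kg, under the fold threshold, and -0.97 ± 0.14 at 30 μg/kg (adjusted p = 1.21e-07).

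The contact system starts coagulation on charged surfaces and releases bradykinin from kininogen. Klkb1 (ENSMUSG00000109764), its prekallikrein, had the largest fall of the coagulation list. It read 201, 179.9, 204, 201 and 198 CPM in vehicle, 96.1, 126, 73.4, 63.1 and 84.6 CPM at 10 μg/kg and 63.3, 10.1, 13.3, 12.9 and 19.0 CPM at 30 μg/kg. The groups were separate except that replicate 1 at 30 μg/kg just reached the lowest mouse at 10 μg/kg, and the log2 fold change was -3.06 ± 0.30 (adjusted p = 3.11e-11), 8.33-fold lower, or -3.84 without replicate 1. F11, its neighbour on chromosome 8 and a protease of the cascade, was at -1.31 ± 0.16. The ratio of Klkb1 to F11 CPM was 1.98 to 2.56 in vehicle, 1.14 to 1.57 at 10 μg/kg and 0.332 to 1.33 at 30 μg/kg. In the M21 annotation 43.2% of Klkb1 exon bases lie under another gene model, so that level is uncertain. F12, which activates prekallikrein, was at -1.16 ± 0.16, and Kng1, the kininogen, at -1.64 ± 0.18.

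Genes of the inhibitors fell alongside those of the proteases. Serpinc1, which encodes antithrombin, fell from 2645 ± 279.5 CPM to 946 ± 349 CPM (log2 fold change -1.48 ± 0.16). Serpind1 (ENSMUSG00000022766), heparin cofactor II, read 574, 539.6, 543, 561 and 628 CPM in vehicle, 494, 481, 388, 499 and 568 CPM at 10 μg/kg and 426, 162, 178, 259 and 318 CPM at 30 μg/kg. Only the 30 μg/kg mice were all below vehicle, at -1.08 ± 0.15 (adjusted p = 9.97e-08).

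In fibrinolysis, Plg, the gene of plasminogen, fell from 2025 ± 243 CPM to 1042 ± 225 CPM and 311 ± 129.8 CPM, 6.51-fold lower with the lowest adjusted p of the members (1.96e-15). Serpinf2, the plasmin inhibitor antiplasmin, fell from 906 ± 101 CPM to 187 ± 136 CPM, 4.85-fold lower. Cpb2 (ENSMUSG00000021999), a plasma carboxypeptidase that slows fibrinolysis, was the member not called in coagulation. It read 282, 276, 340.2, 349.7 and 367 CPM in vehicle, 243, 258, 193, 258 and 323 CPM at 10 μg/kg and 253, 255, 319.5, 430.4 and 508 CPM at 30 μg/kg. The 30 μg/kg mice spanned the vehicle range on both sides, with 0.13 ± 0.14 (adjusted p = 0.44), a value that turned to -0.06 without replicate 5 of that group. Between 10 and 30 μg/kg its step was 0.47 ± 0.14 at an adjusted p of 0.00706, an opposite sign to the other 34 members, without reaching the fold threshold. Its RefSeq window, at chr14:75242037-75242336 on the plus strand of GRCm38.p6, is shown as that of the coagulation member that did not fall, with the C/EBP-like letters in capitals.
Cpb2: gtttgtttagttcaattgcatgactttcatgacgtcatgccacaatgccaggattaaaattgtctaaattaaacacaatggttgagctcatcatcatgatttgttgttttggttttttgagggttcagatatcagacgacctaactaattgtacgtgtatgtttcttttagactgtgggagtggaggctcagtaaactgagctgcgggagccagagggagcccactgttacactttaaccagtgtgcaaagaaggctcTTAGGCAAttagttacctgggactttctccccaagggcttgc

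Complement and coagulation were then set beside each other within mice. For each mouse the mean difference in log2 CPM from the vehicle mean was taken over 14 complement members, Cfb left out for its low counts, and over the 20 coagulation members. In vehicle the complement means ran from -0.09 to 0.11 and the coagulation means from -0.10 to 0.14. At 1 μg/kg they ran from -0.21 to -0.02 and from -0.25 to -0.09, and at 3 μg/kg from -0.16 to -0.002 and from -0.26 to 0.009. Both doses thus lay lower than vehicle but overlapped it. At 10 μg/kg the complement means ran from -0.88 to -0.19 and the coagulation means from -0.85 to -0.36, and complement minus coagulation was -0.03 to 0.17, against -0.15 to 0.13 in vehicle. At 30 μg/kg, in replicate order, complement was -1.09, -3.11, -3.17, -2.84 and -1.96, and coagulation was -0.95, -2.29, -2.31, -2.08 and -1.55. Complement minus coagulation was thus -0.13, -0.82, -0.86, -0.76 and -0.41 in these mice. Replicate 1 lay within the vehicle range of this difference and the other 4 mice lay below it, with complement the lower. The complement mean joins roles that moved by unlike amounts. At this dose the 6 terminal pathway members had a median log2 fold change of -3.03, below the coagulation median of -1.54. The medians of the 5 initiators (-1.29) and of C3 and its convertases (-0.90, Cfb included) and the value of Cfi (-0.54) lay above it. No test was made of this score, since the members were chosen with earlier results of these data known.

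As a share of all gene counts, coagulation fell by the larger factor. The coagulation members took 2.42 ± 0.0876% of gene counts in vehicle and 0.835 ± 0.335% at 30 μg/kg, while the complement members took 1.18 ± 0.0870% and 0.711 ± 0.310% (SD, n = 5). C3, which has the highest counts of the complement list, fell less than any terminal pathway gene. All 35 members together took 3.60 ± 0.0873% in vehicle, 3.47 ± 0.692% at 3 μg/kg, 2.83 ± 0.209% at 10 μg/kg and 1.55 ± 0.644% at 30 μg/kg.

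**Figure D3:**
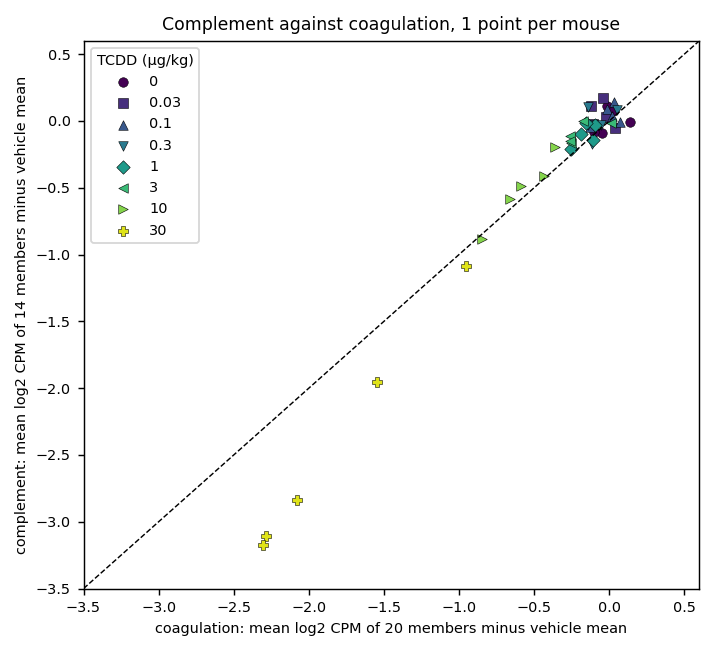
Mean log2 CPM difference from vehicle over 14 complement members (vertical axis) against that over 20 coagulation members (horizontal axis), 1 point per mouse, with symbols for the TCDD dose (μg/kg) and a dashed line of equality. Mice up to 0.3 μg/kg gather around 0. At 1 and 3 μg/kg the coagulation means lie mostly below 0, from -0.25 to -0.09 and from -0.26 to 0.009. Those at 10 μg/kg lie near the line, and all 5 mice at 30 μg/kg lie below it. Replicate 1, at -0.95 and -1.09, is the nearest to the line in that group.

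Replicate 1 at 30 μg/kg was the highest mouse of its group in 32 of the 35 members. It also had the highest summed hepatocyte marker level of its group, 62500 CPM against 30659.8 CPM in the lowest mouse, and the lowest summed macrophage (495 CPM) and stellate cell (466 CPM) marker levels, where the group reached 1209 and 1052 CPM. The part of these differences in the member values was not tested.

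Markers of the liver's cell types moved with dose too. All 6 hepatocyte markers (Alb, Ttr, Apoa1, Apob, Tat, Ass1) were called lower at 30 μg/kg, their sum running from 100472 to 123229 CPM in vehicle and from 30659.8 to 62500 CPM at 30 μg/kg, and all 8 macrophage markers were called higher, their sum going from 143 to 205 CPM in vehicle to 495 to 1209 CPM. Higher calls were also made for 4 of 6 endothelial markers (sums of 135 to 182 and 242 to 328 CPM), 5 of 6 stellate cell markers (156 to 222 and 466 to 1052 CPM), 3 of 4 cholangiocyte markers, with Sox9 lower (14.4 to 19.3 CPM in vehicle and 95.8 CPM in replicate 2 but 15.9 to 21.7 CPM in the other 4 mice at 30 μg/kg), and 2 of 3 tested platelet markers (4.79 to 6.79 and 5.55 to 23.3 CPM). Markers had moved at 10 μg/kg as well, with 3 of 6 hepatocyte markers lower (sums of 64925.9 to 103596 CPM) and 7 of 8 macrophage (328 to 563 CPM), 5 of 6 endothelial (249.6 to 277 CPM) and 4 of 6 stellate cell markers (363 to 453 CPM) higher, and no cholangiocyte or platelet marker called. No marker had a mean of 0 CPM in vehicle or at 30 μg/kg, and Gp9, a platelet gene, was too low to test. In bulk liver, fewer hepatocytes and less RNA of a gene per hepatocyte cannot be told apart. Of the 35 members, 23 had a log2 fold change at 30 μg/kg lower than that of Alb, which was -1.27. The 6 hepatocyte markers ran from -3.20 to -0.84 with a median of -1.40, so this count depends on the marker taken. Whether the change in cell makeup set any part of the member falls was not tested.

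Other genes of both systems, chosen by membership of these systems, moved in both directions. Of 30 further complement genes 27 were tested, with 7 called lower and 11 higher at 30 μg/kg and a median of 0.29, beside the 18.9% and 23.2% of all genes called lower and higher. Of 28 further coagulation genes 24 were tested, with 7 lower and 10 higher and a median of 0.10. C4bp, which encodes C4b-binding protein, fell from 489 ± 29.5 CPM to 106 ± 86.7 CPM (-2.21 ± 0.27) and was at -0.63 ± 0.26 at 10 μg/kg, where it was not called. C1s1, the partner protease of C1r, fell by 2.27 on the log2 scale, C4b, the source of C4, by 1.92 and Proz, the vitamin K dependent protein Z, by 2.35.

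Several of these other genes rose. C1qa, a chain of the C1q recognition molecule made mainly by macrophages, went from 29.6 ± 1.62 CPM to 119 ± 25.2 CPM (2.01 ± 0.18) and was called from 1 μg/kg upward. C5ar1, the receptor of the C5 fragment C5a, went from 0.661 ± 0.342 CPM to 22.3 ± 9.04 CPM (5.06 ± 0.48), and was called higher at 10 and 30 μg/kg, where Hc, the gene of its ligand's precursor, was called lower. C3ar1, the receptor of the C3 fragment C3a, rose from 1.55 ± 0.562 CPM to 27.1 ± 12.1 CPM (4.13 ± 0.34) and was likewise called higher at both doses. Plat, tissue plasminogen activator, rose from 0.489 ± 0.425 CPM to 11.2 ± 8.68 CPM (4.51 ± 0.52), from a low base of 2 to 19 counts.

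Vwf, which carries factor VIII and is made by endothelium and platelets, rose by a log2 fold change of 1.57 ± 0.21, and F13a1, the catalytic subunit of factor XIII, by 3.13 ± 0.84 from 0 to 6 vehicle counts, while F13b fell. F3 (tissue factor) was at -0.01 ± 0.37 and F8 at 0.23 ± 0.22, neither called. Ggcx and Vkorc1, the enzymes that carboxylate vitamin K dependent proteins and recycle vitamin K, were at -0.30 ± 0.11 and -0.71 ± 0.35, also not called. F3 and Vkorc1 were low, at 0.909 to 3.28 CPM and 0.896 to 2.08 CPM in vehicle, so their lack of a call says little.

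**Figure D4:**
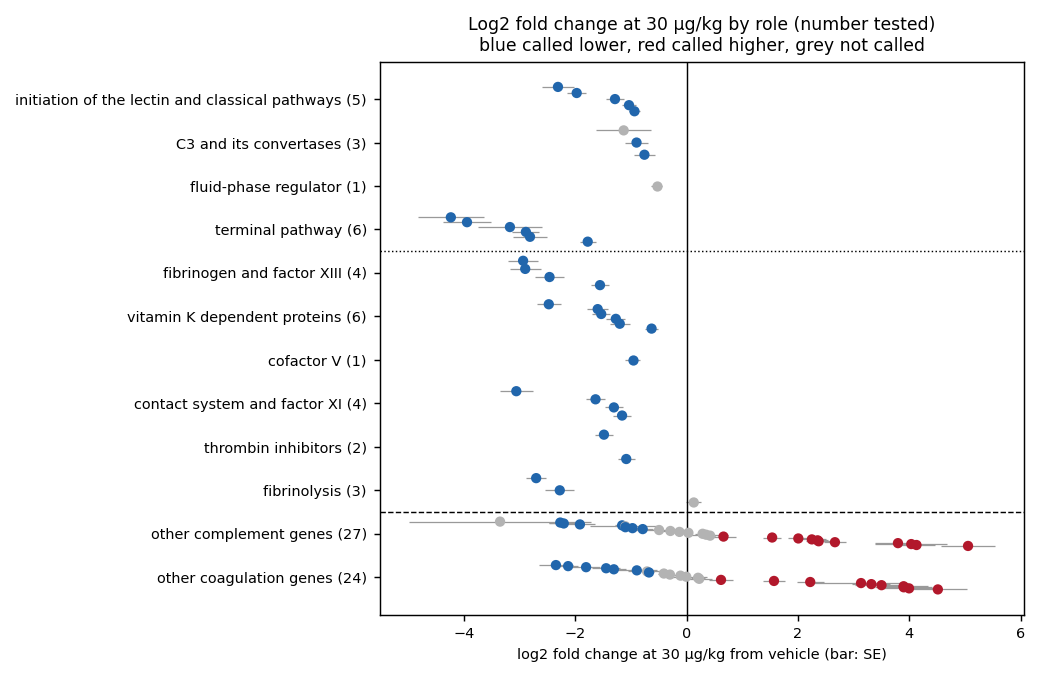
Log2 fold change at 30 μg/kg from vehicle (horizontal axis, bar SE) of each member grouped by role, with complement above the dotted line and coagulation below it, and under the dashed line the tested other genes of both systems. Blue points were called lower, red higher and grey not called. Members lie left of 0 except Cpb2 at 0.13, with the terminal pathway furthest left, while the other genes spread to both sides, up to C5ar1 at 5.06.

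The titles of the mice fall in numbers up to 27 (19 libraries) and from 28 (21 libraries), each with mice of every dose. At 30 μg/kg the lower numbers alone gave 11 complement and 18 coagulation members called lower, where 14.2% of all genes were, and the higher numbers alone 15 and 19, where 18% were. At 10 μg/kg the lower numbers gave 1 and 1 (C8g and Plg), where 4.5% of all genes were called lower, and the higher numbers 3 and 8, where 6.35% were. The lower numbers hold 2 of the 30 μg/kg mice, and replicate 1 is among them. Scaling to library totals alone moved the median of all genes to 0.52 at 30 μg/kg and left 9 complement and 17 coagulation members called lower, where 10.1% of all genes were called lower and 41.6% higher, with Cpb2 called higher at 0.62, and no member other than Cpb2 had a positive log2 fold change.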

How the data were processed

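Liver total RNA of 40 mice was sequenced as unstranded libraries, 1 per mouse. The authors deposited raw read counts per gene for each library in the layout of the STAR aligner, and the submitters' processing notes name FastQC 0.11.7, Trimmomatic 0.39, STAR 2.7.3a and the builds GRCm39 and mm10, while the annotation is not given in the sources used here. The unstranded column was used, since the strand settings split reads evenly (50.0% to 50.3%). In it, reads over exons of more than 1 gene, on either strand, count as ambiguous and for no gene. Reads in genes were 71.3% to 80.8% of each library, and unmapped (2.47% to 11.3%), multimapping (5.24% to 7.43%), no-feature (outside annotated exons, 3.34% to 7.36%) and ambiguous (4.84% to 5.90%) reads were left out. Of 55359 gene identifiers 52083 had a symbol in a GENCODE M21 table, which also gave lengths, neighbours and exon overlap. A deposited table of normalized log2 values of the same libraries was not used.

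Counts were fitted in R 4.3.3 with edgeR 4.0.16 (filterByExpr with minimum count 10 and minimum total count 15, TMM scaling, glmQLFit with 1 mean per dose over all 40 libraries, glmQLFTest), with Benjamini-Hochberg adjustment over 15373 genes. The fold threshold of 1.5 is that of the study, whose posterior probability was replaced by this test. Standard errors of log2 fold changes were taken as the absolute log2 fold change divided by the square root of the quasi-likelihood F statistic. The slope was linear over dose steps 0 to 7. CPM used TMM-scaled totals. A prior count of 2 was added to the log2 CPM behind the principal components, but not to the log2 CPM compared within mice. Libraries of a group were not copies of each other (chi-square per degree of freedom at least 10.2 in 80 pairs). Groups were taken from the labels and replicate numbers from accession order.

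The members and gene lists were chosen with earlier results of these data known. Values in every mouse are given, in each list, for the 3 largest and 3 smallest called changes at 30 μg/kg, for any member called at 3 μg/kg or below, and for uncalled members. Other genes named are the 3 largest rises and falls among the called further genes of both systems, plus C4b, C1qa, F3, F8, Vwf, F13a1, Ggcx and Vkorc1. Some further genes of both systems are not reported here and were left out of their lists, so ranks and counts are over the genes kept. Promoter windows come from RefSeq (GRCm38.p6). Alternatives were DESeq2 1.42.0, relative log expression factors, library totals, no low-count filter, no fold threshold, vehicle and the dose alone, title numbers as a covariate or split, and leaving out each library.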

Additional observations from a re-analysis of the deposited data

Results flagged for a closer look

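In the 280 sets of 5 mice formed by 35 members and 8 groups, the gap between an extreme mouse and its nearest neighbour exceeded Dixon's critical value 28 times. The rule flags about 1 in 20 sets of independent, normally distributed values. These sets share the same mice, so their count cannot be held against that rate. At 30 μg/kg all 9 such gaps were replicate 1 standing highest. Its levels, each with the next mouse, were 112 and 35.9 CPM for Mbl1, 2.27 and 0.707 CPM for Cfb, 245 and 105 CPM for Hc, and 132 and 29.3 CPM for C8a. They were 134 and 35.5 CPM for C8b, 83.1 and 25.8 CPM for C9, 117 and 52.7 CPM for F13b, 129 and 58.8 CPM for F9, and 63.3 and 19.0 CPM for Klkb1.

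At 3 μg/kg replicate 2 stood highest in all 3 fibrinogen genes, with 8653 CPM of Fga (next mouse 3491), 7041 CPM of Fgb (2860.5) and 5435 CPM of Fgg (2332). In the same group replicate 5 was highest for F2 (2279 CPM, next 1931) and F12 (722 CPM, next 577) and lowest for Mbl2 (209 CPM, next 252) and F9 (111 CPM, next 154).

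At 10 μg/kg replicate 5 was highest for F12 (716 CPM, next 548). At 1 μg/kg replicate 5 was highest for C8b (419.6 CPM, next 315), replicate 3 for Fgb (3905 CPM, next 3030.1), and replicate 4 lowest for Plg (1673 CPM, next 1877). At 0.3 μg/kg replicate 5 was highest for Fga (5688 CPM, next 4486) and Fgg (3399 CPM, next 2599.6). At 0.1 μg/kg replicate 5 was lowest for F13b (149.6 CPM, next 182) and F11 (68.6 CPM, next 90.7). At 0.03 μg/kg replicate 5 was highest for C8g (547 CPM, next 388) and lowest for F9 (126 CPM, next 157) and F5 (343 CPM, next 483). In vehicle replicate 2 was lowest for Klkb1 (179.9 CPM, next 198). Mice numbered 5 of different groups share only that number.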

How the results depend on the processing

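No paired analysis was possible because the titles give each mouse its own number and the replicate numbers, given in accession order, pair no mice. Scaling to library totals left 1 complement member called lower at 10 μg/kg (4 with TMM) and 8 lower from 10 to 30 μg/kg (14), and called 1 coagulation member, Cpb2, higher at 30 μg/kg; C2, C3, F5, Masp1, Masp2 and Pros1 were no longer called. Title numbers up to 27 alone left 1 complement and 1 coagulation member lower at 10 μg/kg, 5 and 2 lower from 10 to 30 μg/kg, and 4 other coagulation genes lower at 30 μg/kg (7), with fewer mice, and turned Cpb2 to -0.25 at 30 μg/kg; numbers from 28 alone gave 2 coagulation calls at 0.03 to 3 μg/kg. Without a fold threshold there were 11 coagulation members lower at 10 μg/kg and 1 call in each list at 0.03 to 3 μg/kg. Of the 35 log2 fold changes at 30 μg/kg, 35 kept direction and side of the threshold without the filter and with vehicle and the dose alone, 34 with relative log expression factors or title numbers as covariate (Cfb gained), and 33 in DESeq2, which gave no adjusted p for C8a and C8b.

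Leaving out each library in turn gave 13 to 15 complement and 18 to 19 coagulation members lower at 30 μg/kg, and 6 to 7 coagulation members lower at 10 μg/kg. Complement members lower at 10 μg/kg ranged from 2 to 5, with 2 without vehicle replicate 3 or 4 or without replicate 3 or 4 of 10 μg/kg. Complement calls at 0.03 to 3 μg/kg ranged from 0 to 1, the latter without vehicle replicate 4, and the log2 fold change of Cpb2 from -0.061 (without replicate 5 of 30 μg/kg) to 0.23. The causes were not tested. Cfb had 4 to 56 counts, and 79.5% of its exon bases also belong to another gene, so its values are uncertain. The standard deviations and standard errors given include the spread between mice.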
